A study of Rattus norvegicus with 6 samples.

Results

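The Dlk1-Meg3 domain is an imprinted gene cluster outside the Prader-Willi syndrome (PWS) domain, and it was not a target of the genome editing in these cells. Its members were chosen by symbol: miRNA genes carrying any of 47 cluster numbers, and genes whose symbol starts with Snord113 or Snord114. The rule found 40 genes of the 32883 listed, all of them miRNA genes. In all, 461 genes were counted as miRNA genes because their symbol starts with Mir, rno-mir or let. These include Letm1, Letm2 and Letmd1, which code for proteins. Of the 47 miRNA numbers, 39 had a gene. No gene matched Snord113 or Snord114, so the snoRNAs of the cluster were not analysed here.

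Libraries of small RNAs came from 6 clonal derivatives of INS-1(832/13)::mCherry, a rat insulinoma line used as a β-cell model, which makes both rat and human insulin and carries a reporter of mouse Ins2 C-peptide fused to mCherry. Control lines 5-9, 2 and 16 lack the PWS domain on the silent maternal allele. PWS lines 3, 19-1 and 19-4 lack it on both the maternal and the active paternal allele. Line 5-9 is the parent of the other 5 lines, so every line shares the maternal deletion. Lines 19-1 and 19-4 are subclones of a single edited line, and line 3 has a larger paternal deletion with an alternate proximal breakpoint. All lines were grown untreated in medium with 7.5 mM glucose, with 1 library per line. The p-values therefore measure the spread between lines, in which differences of clone and of library cannot be told apart. The values are normalized reads, that is reads per gene divided by a size factor for the library.

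In rodents and humans the Dlk1-Meg3 domain expresses protein-coding genes such as Dlk1, Rtl1 and Dio3 from the paternal chromosome. From the maternal chromosome it makes long non-coding transcripts (Meg3, Rian, Mirg) that host C/D-box snoRNA arrays and one of the largest miRNA clusters of mammals. The cluster is known for its activity in embryo, placenta and brain, and in human islets its miRNAs are made by β-cells and are reduced in type 2 diabetes. A miRNA gene is transcribed as a hairpin that yields a 5p and a 3p mature strand, and bases 2 to 8 of a mature strand, the seed, select target mRNAs.

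The sequences of the 7 members abundant enough to be tested are shown here, with both arms because reads were counted per hairpin gene and cannot be divided between arms. They are RefSeq sequences of the GRCr8 assembly, in which 38 of the 40 members had a mature sequence, and the seed is in capitals. All are encoded on the plus strand of chromosome 6.
rno-miR-541-5p: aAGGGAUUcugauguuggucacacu
rno-miR-541-3p: aGUGGCGAacacagaauccauac
rno-miR-379-5p: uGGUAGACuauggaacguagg
rno-miR-379-3p: cUAUGUAAcaugguccacuaac
rno-miR-411-5p: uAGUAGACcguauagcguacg
rno-miR-411-3p: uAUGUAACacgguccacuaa
rno-miR-134-5p: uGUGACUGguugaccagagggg
rno-miR-134-3p: cUGUGGGCcaccuagucaccaa
rno-miR-494-5p: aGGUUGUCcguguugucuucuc
rno-miR-494-3p: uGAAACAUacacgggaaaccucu
rno-miR-300-5p: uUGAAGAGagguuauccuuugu
rno-miR-300-3p: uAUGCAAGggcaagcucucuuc
rno-miR-381-5p: aGCGAGGUugcccuuuguauau
rno-miR-381-3p: uAUACAAGggcaagcucu

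Near-identical strands can share reads, and among the tested members Mir300 and Mir381 came closest to this when strands were compared from their 5′ ends. Over the 18 bases that both 3p strands cover, miR-300-3p and miR-381-3p differed at a single position inside the seed (G4A, counted from 1 at the 5′ end with the miR-300-3p base first). The seeds of these strands therefore differ. With a shift of a single base, the 20 bases of miR-411-3p also match miR-379-3p at all but a single position. Whether Mir379 and Mir411, or Mir300 and Mir381, share reads in this way was not tested. The next 5 members by abundance, with between 6 and 26 reads over the 6 libraries, have the following sequences.
rno-miR-323-5p: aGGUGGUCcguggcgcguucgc
rno-miR-323-3p: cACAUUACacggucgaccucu
rno-miR-376c-5p: gUGGAUAUuccuucuauguuu
rno-miR-376c-3p: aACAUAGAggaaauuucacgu
rno-miR-485-5p: aGAGGCUGgccgugaugaauuc
rno-miR-485-3p: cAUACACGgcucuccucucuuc
rno-miR-154-5p: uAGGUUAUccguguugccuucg
rno-miR-154-3p: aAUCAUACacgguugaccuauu
rno-miR-493-5p: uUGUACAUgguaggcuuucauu
rno-miR-493-3p: uGAAGGUCuacugugugccag

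Members that share a seed with one of these 12 genes follow. The seed GGUUGUC occurs in miR-494-5p, miR-410-5p and miR-496-5p, and the seed UGGAUAU in miR-376c-5p and miR-376b-5p. Over 21 bases miR-376b-5p and miR-376c-5p differed at a single position (G19U). Mir376b and Mir496 had no read in any line.
rno-miR-410-5p: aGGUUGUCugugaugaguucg
rno-miR-496-5p: aGGUUGUCcaugguguguuc
rno-miR-376b-5p: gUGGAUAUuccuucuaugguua

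The first question was whether β-cell lines of this kind express the cluster at all. They did so at a very low level. Of the 40 members, 26 had a read in some line and 14 had none among 67377309 reads pooled over the lines, which allows up to 0.0445 RPM (reads per 1000000 reads) for each, the level of 3 reads and for counting error only. Only 7 members had a read in every line, and 15 members had between 1 and 10 reads in all. Together the 40 members gave 861 reads.

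Per line, the members contributed between 9.42 and 28.9 RPM. Reads of miRNA genes made up 88.5% to 90.0% of each library, and of these the members took 10.5 to 32.5 per 1000000. The depth behind these values ranged from 7373691 to 16480475 reads per line. Mir7a1 and Mir375, miRNAs that mark β-cells, stood at 944223 and 705935 normalized reads on average, so the defining miRNAs of the labelled cell type were present.

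Compared with other miRNA genes the members were scarce. The median member averaged 0.364 normalized reads per gene. The median was 31.8 over the 421 other genes counted as miRNA genes, with Letm1, Letm2 and Letmd1 among them. At least 1 read was seen for 65.0% of members and for 78.9% of the other miRNA genes. A mean of 5 normalized reads was reached by 17.5% of members against 60.3% of the others. These are values per hairpin gene without division by length, and no test was made of the difference in level. Mir541 was the most abundant member and ranked 193 among the 461 genes counted as miRNA genes, followed by Mir379 at 230, Mir411 at 233 and Mir134 at 235.

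The reads were unevenly placed along the cluster. In the order of genes that RefSeq gives for GRCr8, the cluster miRNAs fall into a group before the snoRNA arrays, from Meg3 to Mir370, and a group after them, from Mir379 onward. The interval between Mir370 and Mir379 holds 84 snoRNA genes and 43 pseudogenes in that assembly, of which 5 pseudogenes have a Snord113 or Snord114 symbol. Order was taken from that assembly for 39 members, while the authors counted on Rnor_6.0, and rno-mir-679 could not be placed. The Mir379 hairpin lies at chr6:134543445-134543529 and the Mir410 hairpin at chr6:134579763-134579838, both on the plus strand of GRCr8.

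The 27 members from Mir379 onward gave 846 of the 861 reads (98.3%), and 20 of them had a read. The 12 members before the arrays gave 15 reads in all, and 6 of them had a read. All 7 members that could be tested lay after the arrays. Mir541 alone held 37.3% of member reads, and the 7 tested members held 88.2%.

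**Figure D1:**
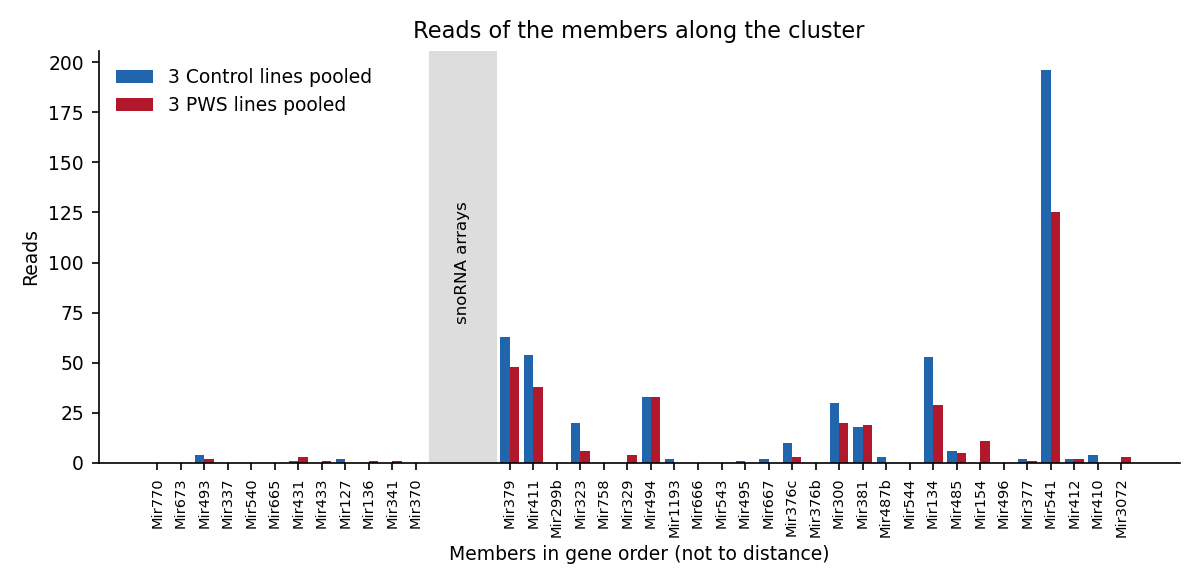
Reads of 39 members in their order along the cluster, pooled over the 3 Control lines (blue) and the 3 PWS lines (red), with the position of the snoRNA arrays in grey and no scale of distance. All bars above 10 reads stand to the right of the arrays, with Mir541 at 196 Control and 125 PWS reads.

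Among the members before the arrays, the 6 genes between Meg3 and Rtl1 (Mir770, Mir673, Mir493, Mir337, Mir540 and Mir665) gave 6 reads, all from Mir493. The next 4, Mir431, Mir433, Mir127 and Mir136, lie antisense within Rtl1, a retrotransposon-derived gene of the placenta whose mRNA they are known to cleave. Each was detected, with 4 reads for Mir431, 2 for Mir127 and 1 each for Mir433 and Mir136. These reads came from lines 16, 3, 19-1 and 19-4, with 3, 2, 2 and 1 reads, and none came from line 5-9 or line 2. Of the remaining pair, Mir341 had 1 read and Mir370 none. Before the arrays, Control lines gave 7 reads and PWS lines 8.

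The member total was highest in Control line 2. Its members summed to 289 normalized reads, from 221 reads, with a 95% counting interval of 252 to 330. The other Control lines summed to 135 (113 to 160) in line 5-9 and 114 (96.5 to 134) in line 16. The PWS lines summed to 100.4 (85.8 to 117) in line 3, 101 (81.7 to 123) in line 19-1 and 119 (95.4 to 146) in line 19-4.

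The interval of line 2 lay above those of the other lines, but such intervals hold counting error within 1 library and not the spread between clones. Line 2 was the highest also without Mir541, at 153 normalized reads (126 to 183), against values of 61.8 to 91.6 in the other lines. Of the reads of miRNA genes, the members took 32.5 per 1000000 in line 2 and 10.5 to 13.8 elsewhere. The depth of line 2, 7634142 reads, was the second lowest. Its difference from the other lines cannot be told apart from a difference in 1 library, since each line has 1 library.

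**Figure D2:**
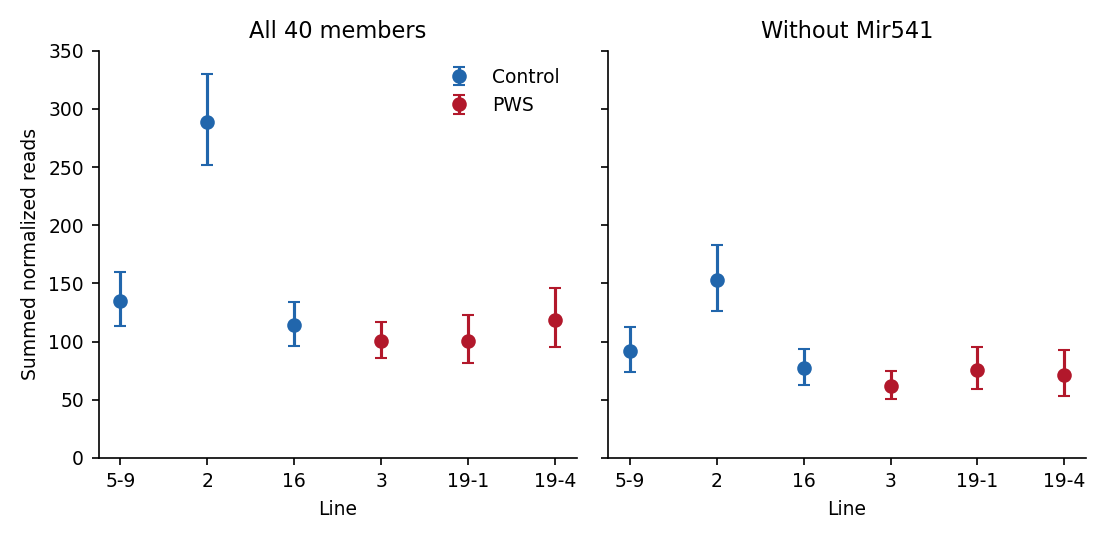
Summed normalized reads per line of all 40 members (left) and of the members without Mir541 (right), in Control (blue) and PWS (red) lines. Bars are exact 95% Poisson intervals for counting error only. Line 2 lies above the other 5 lines in both panels, at 289 and 153 normalized reads.

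The genotype comparison asked whether loss of the paternal PWS domain goes with a change in this second imprinted cluster. The member total averaged 179 ± 95.4 normalized reads over the Control lines against 107 ± 10.4 over the PWS lines (SD, n = 3 each), a difference of -0.63 between the means of log2 totals. Without line 2 this difference was -0.22. No test was made of the sum.

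No tested member passed the test between genotypes. Limma called 0 of 7 at an adjusted p under 0.1, where 1.28% of the 4292 genes tested were called. At an unadjusted p under 0.05 limma placed 1 member, Mir134, against 5.96% of all genes tested. EdgeR and DESeq2 on the recovered reads also called 0 of 7, against 1.37% and 1.35% of all genes. Each placed 2 members at an unadjusted p under 0.05, against 5.36% of all genes in edgeR and 3.22% in DESeq2. The other 33 members, of which 14 had no read, were too scarce to be tested, so the 7 do not stand for the cluster as a whole.

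**Figure D3:**
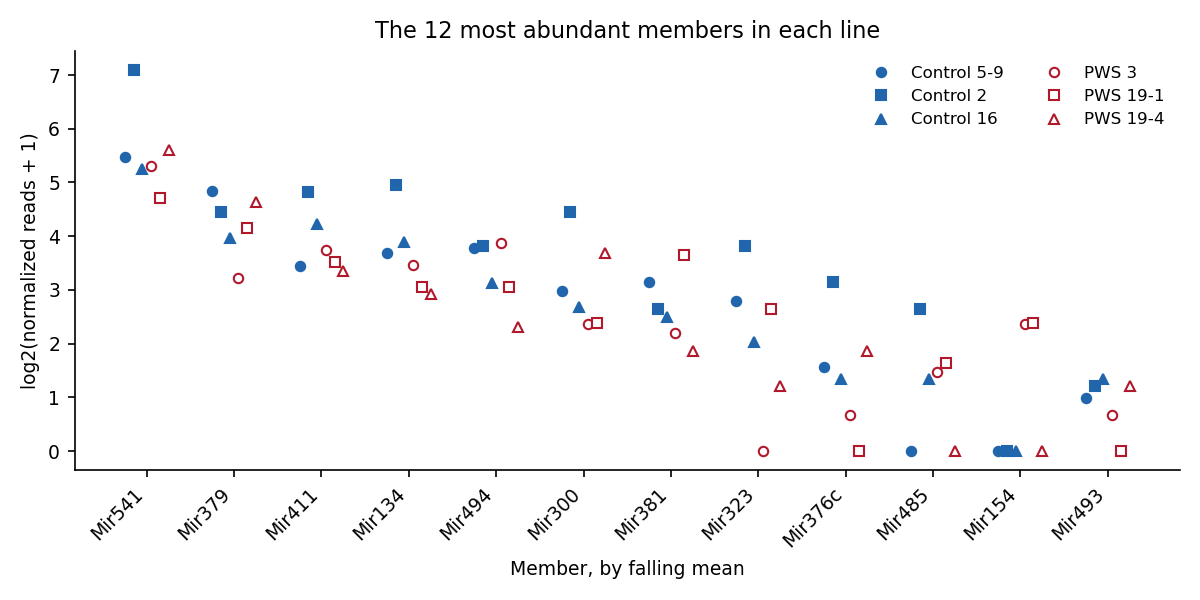
The 12 most abundant members in each line, on the scale of log2(normalized reads + 1), with Control lines as filled blue and PWS lines as open red symbols, 1 point per line. Line 2 (blue squares) holds the highest point for 7 of the 12 members, and the Mir134 groups do not overlap.

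Mir541, the most abundant member, stood at 43.3, 136 and 37.0 normalized reads in Control lines 5-9, 2 and 16 and at 38.6, 25.2 and 47.5 in PWS lines 3, 19-1 and 19-4. Line 2 was far above every other line, and the remaining Control lines lay among the PWS lines. The log2 fold change (PWS minus Control, on log2(normalized reads + 1)) was -0.73 ± 0.44 (SE), with a 95% interval of -1.66 to 0.20 and an adjusted p of 0.860 in limma. Without line 2 it was -0.15.

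The share of Mir541 among the member reads was highest in line 2, at 47.1% (exact 95% binomial interval 40.3 to 53.9), and lowest in line 19-1, at 25.0% (16.7 to 34.9). These intervals cover counting error in single libraries and not the spread between clones. In lines 5-9, 16, 3 and 19-4 the share lay between 32.1% and 40.0%. The share of Mir379 was 20.4% (14.0 to 28.2) in line 5-9, 7.24% (4.19 to 11.5) in line 2 and 12.8% (7.91 to 19.3) in line 16. It was 8.28% (4.60 to 13.5) in line 3 and 16.7% (9.84 to 25.6) in line 19-1. Line 19-4 lay between lines 19-1 and 5-9, and lines 2 and 3 had the lowest shares.

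Mir379, at the near end of the group after the arrays, stood at 27.6, 20.9 and 14.7 normalized reads in Control lines 5-9, 2 and 16 and at 8.31, 16.8 and 23.7 in PWS lines 3, 19-1 and 19-4. The groups overlapped, and line 2 was not the highest. Its log2 fold change was -0.42 ± 0.42 (SE; 95% interval -1.30 to 0.47; limma adjusted p = 0.890). It was -0.03 without line 3 and -0.73 without line 19-4.

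Mir411 is its neighbour in gene order. It stood at 9.85, 27.5 and 17.7 normalized reads in Control lines 5-9, 2 and 16 and at 12.5, 10.5 and 9.23 in PWS lines 3, 19-1 and 19-4. Lines 2 and 16 were above the PWS lines and line 5-9 was within their range. The log2 fold change was -0.62 ± 0.41 (SE; 95% interval -1.49 to 0.25; limma adjusted p = 0.863), and it was -0.29 without line 2.

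Mir134, known in neurons for restraining dendritic spine growth through Limk1, stood at 11.8, 30.1 and 13.9 normalized reads in Control lines 5-9, 2 and 16. It stood at 10.1, 7.35 and 6.59 in PWS lines 3, 19-1 and 19-4. All PWS lines were below all Control lines, though line 3 and line 5-9 differed by less than their counting intervals of 5.88 to 16.2 and 6.11 to 20.6. The log2 fold change was -1.02 ± 0.42 (SE; 95% interval -1.91 to -0.14), and it did not pass the test (limma adjusted p = 0.831). Without line 2 it was -0.64. Mir134 was the only tested member whose groups did not overlap, and 6.29% of all genes tested lay apart in this direction.

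Mir494 stood at 12.8, 13.1 and 7.72 normalized reads in Control lines 5-9, 2 and 16 and at 13.7, 7.35 and 3.96 in PWS lines 3, 19-1 and 19-4. Line 3 held the highest value, and the groups overlapped. The log2 fold change was -0.49 ± 0.46 (SE; limma adjusted p = 0.889), and it was -0.11 without line 19-4 and -0.89 without line 3.

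Mir300 and Mir381, whose 3p strands are nearly identical, did not share a pattern over the lines. Mir300 stood at 6.89, 20.9 and 5.40 normalized reads in Control lines 5-9, 2 and 16 and at 4.16, 4.20 and 11.9 in PWS lines 3, 19-1 and 19-4. Mir381 stood at 7.88, 5.23 and 4.63 in the same Control lines and at 3.56, 11.6 and 2.64 in the PWS lines. Mir300 was highest in line 2 and Mir381 in line 19-1, and for both genes the groups overlapped. The log2 fold changes were -0.56 ± 0.54 for Mir300 and -0.19 ± 0.59 for Mir381 (SE), with limma adjusted p-values of 0.889 and 0.971. The value of Mir300 was -0.02 without line 2 and -0.998 without line 19-4. Without line 19-4 that of Mir381 was 0.16.

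All 7 tested members had a lower mean in PWS lines on the log2 scale, with a median log2 fold change of -0.56. Over all 4292 genes tested the median was 0.0048 and 49.7% were lower. Of the 254 other genes counted as miRNA genes and tested, with Letm2 and Letmd1 among them, 68.5% were lower, with a median of -0.14. Among 2915 genes in the same range of abundance as the members, 47.2% were lower. Line 2 was highest for 4 of the 7 members (Mir541, Mir411, Mir134 and Mir300), for 18.8% of all genes tested and for 17.3% of the other tested miRNA genes. Without line 2 the 7 log2 fold changes were still below 0, between -0.64 (Mir134) and -0.02 (Mir300), with a median of -0.29.

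**Figure D4:**
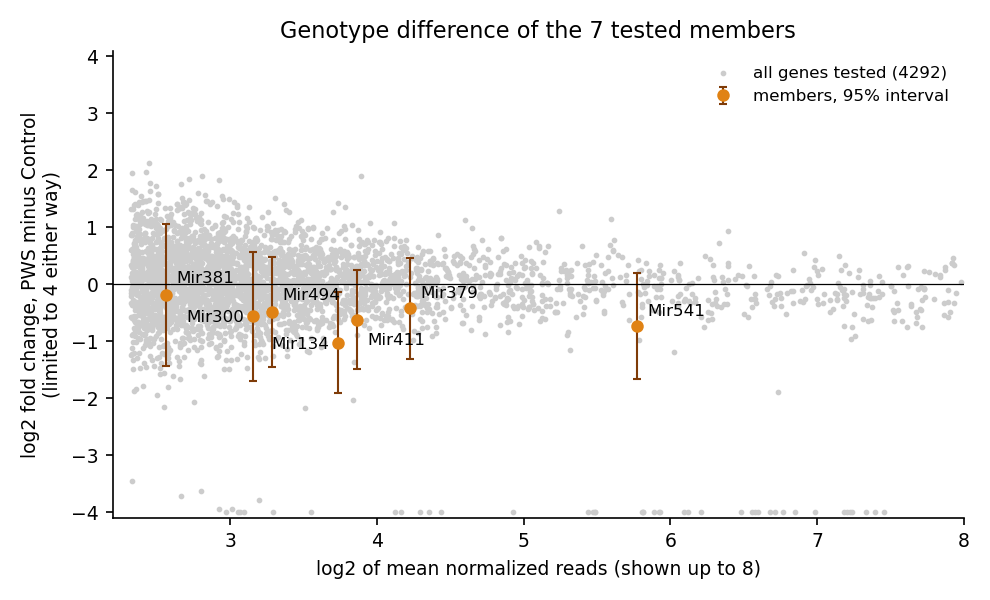
Log2 fold change (PWS minus Control) against log2 mean normalized reads for all genes tested (grey, differences limited to 4 either way) and the 7 tested members (orange) with 95% intervals from limma. All 7 members lie below 0, and the interval of Mir134 alone, from -1.91 to -0.14, leaves out 0.

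The residual SD of the tested members, the spread between lines of a genotype on the log2 scale, had a median of 0.62 and ranged from 0.51 (Mir411) to 0.86 (Mir300). The median was 0.52 over all genes tested, 0.54 over genes in the same range of abundance and 0.34 over other tested miRNA genes, which were more abundant. Mir411 lay below the median of all genes tested, and Mir134 below that of genes in its range. The subclones 19-1 and 19-4 differed by a median of 0.75 on the log2 scale for the tested members and by 0.58 for genes in that range. Most of these values rest on fewer than 30 reads per line, and the part of counting error in the spread was not tested.

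Below the limit for testing, Mir323 averaged 4.77 normalized reads. It had 6, 10 and 4 reads in Control lines 5-9, 2 and 16 and 0, 5 and 1 reads in PWS lines 3, 19-1 and 19-4. Mir376c had 2, 6 and 2 reads in those Control lines and 1, 0 and 2 reads in the PWS lines. Both were highest in line 2, and PWS lines overlapped the Control lines for each. In limma with no filter on abundance the log2 fold change of Mir323 was -1.59 ± 0.68 (SE) with an adjusted p of 0.890.

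Mir485 had 0, 4 and 2 reads in Control lines 5-9, 2 and 16 and 3, 2 and 0 reads in PWS lines 3, 19-1 and 19-4. Mir493 had 1, 1 and 2 reads in those Control lines and 1, 0 and 1 reads in the PWS lines. At these counts no difference between the groups was detectable.

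Mir154 had the most reads among the 6 members seen in PWS lines only. It had no read in any Control line and 7, 4 and 0 reads in PWS lines 3, 19-1 and 19-4. With 3 reads over the Control group as the limit, its pooled level in PWS lines was 3.32-fold that limit. This leaves out the counting error of the 11 PWS reads. In the same fit its log2 fold change was 1.58 ± 0.70 (SE) with an adjusted p of 0.890. Mir154 was not among the members tested here because its mean was 1.39 normalized reads.

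Of the members not yet described, none had more than 4 reads in all. Reads were seen in both groups for 14 members, in Control lines only for 6 and in PWS lines only for 6. Mir329 had 1, 1 and 2 reads in PWS lines 3, 19-1 and 19-4 and none in the Control lines, and Mir487b had 1 read in each Control line and none in the PWS lines. These are the other members whose groups did not overlap, each by a few reads. Over the 17119 genes with a read, 3.42% lay apart lower and 4.42% higher in PWS lines. Mir410 had 3, 0 and 1 reads in Control lines 5-9, 2 and 16 and none in the PWS lines. Mir3072 had 3 reads, all in line 19-4.

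How reads shared between genes were counted had no bearing on the members. The authors counted once with each read that overlapped several genes added to all of them, and once with such reads left out, and all 40 members had the same reads in both tables. RefSeq places minus-strand miRNA genes opposite several cluster hairpins (Mir3543, Mir299b, Mir3579, Mir3595, Mir3576, Mir3592, Mir3581 and Mir3578). All of these had 0 reads, and the plus-strand genes they overlap were not analysed here.

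A few members share a seed with a miRNA encoded elsewhere, and these pairs were chosen after their values were seen. The pair of miR-410-3p and miR-344b-1-3p joins the Dlk1-Meg3 cluster with the Mir344 cluster of the deleted PWS domain, and the seed AUAUAAC is in capitals.
rno-miR-410-3p: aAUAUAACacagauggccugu
rno-miR-344b-1-3p: gAUAUAACcaaagcccgacugu

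Mir344b-1 stood at 235, 161 and 174 normalized reads in Control lines 5-9, 2 and 16, and had 0, 0 and 1 reads in PWS lines 3, 19-1 and 19-4. It was lower in all 3 PWS lines, with a log2 fold change of -7.15 ± 0.41 (SE; limma adjusted p = 9.81e-10), as the labels of the lines require. Mir410 had 4 reads over the Control lines and none in the PWS lines.

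The seeds of miR-377-5p and miR-329-3p recur in more abundant miRNAs of the X chromosome, shown here below each member.
rno-miR-377-5p: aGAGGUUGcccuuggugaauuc
rno-miR-672-5p: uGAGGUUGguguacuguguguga
rno-miR-329-3p: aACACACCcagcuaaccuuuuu
rno-miR-362-3p: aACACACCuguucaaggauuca

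Mir672, which shares a seed with miR-377-5p, averaged 18126 ± 2863 normalized reads over Control lines and 18221 ± 3450 over PWS lines (SD, n = 3 each), against 3 reads in all for Mir377. Mir362, which shares a seed with miR-329-3p, averaged 608 ± 146 over Control lines and 319 ± 160 over PWS lines, with a log2 fold change of -1.03 ± 0.35 (SE) and a limma adjusted p of 0.599. Mir329 had 4 reads. These are reads per hairpin gene, and which of its arms they came from was not measured.

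Other genes of the domain and its flanks were looked at in the same libraries, which were made for short RNAs, so that reads of mRNAs are fragments. Of a list of 19, 12 had a gene in the table, 7 had a read, 3 could be tested and 0 were called, with 0 at an unadjusted p under 0.05 in limma. Dlk1, a Notch-related membrane protein, Dio3, which inactivates thyroid hormone, and Begain had no read, and neither did Slc25a47 and Degs2. Meg3, Rtl1, Meg8, Rian, Mirg and Meg9 were not analysed here.

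Among the flanking genes, Dync1h1, the heavy chain of cytoplasmic dynein, stood at 39.4, 20.9 and 31.6 normalized reads in Control lines 5-9, 2 and 16 and at 43.9, 29.4 and 11.9 in PWS lines 3, 19-1 and 19-4. Yy1, a zinc-finger transcription factor, stood at 4.92, 9.15 and 4.63 in those Control lines and at 4.16, 5.25 and 13.2 in the PWS lines. Wars1, a tryptophanyl-tRNA synthetase, stood at 1.97, 7.84 and 9.26 in those Control lines and at 4.75, 4.20 and 10.5 in those PWS lines. The groups overlapped for each, with limma adjusted p-values from 0.950 to 0.981.

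Less abundant flanking genes were Ppp2r5c, a phosphatase subunit, and Evl, an actin regulator. Ppp2r5c stood at 5.91, 1.31 and 3.86 normalized reads in Control lines 5-9, 2 and 16 and at 5.94, 4.20 and 3.96 in PWS lines 3, 19-1 and 19-4. Evl stood at 3.94, 0 and 6.17 in those Control lines and at 0, 0 and 1.32 in the PWS lines. Wdr25 was seen only in line 5-9 (1.97) and Slc25a29 only in line 2 (1.31). Of the 7 flanking genes with a read, line 2 was the highest for Slc25a29 alone.

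Genes that process miRNAs and bind C/D-box snoRNAs were looked at likewise, as mRNA fragments. Of 10 miRNA machinery genes, 5 were tested and 0 were called, and of 4 C/D snoRNP proteins, 2 were tested and 0 were called; neither list had a gene at an unadjusted p under 0.05 in limma. Dgcr8, which guides Drosha to hairpins and is itself cut by it, stood between 481 and 740 normalized reads, with overlapping groups. Dicer1, which cuts hairpins into mature strands, stood between 9.23 and 20.9.

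Of 10 β-cell markers, all tested, 0 were called by limma, with 2 at an unadjusted p under 0.05 (Ins2 and Chgb). Among markers of other cell types, the 4 hormones of other islet cells (Gcg, Sst, Ppy and Ghrl) had no read in any line. Levels were summed over the markers that had a gene under the listed symbol. The sums lay at 2.10 to 15.4 normalized reads for acinar cells and 13.1 to 48.8 for fibroblasts (Mir143, with Col1a1, Col3a1 and Mir145 at 0). They lay at 13.9 to 35.6 for endothelium (Mir126a) and 51.2 to 77.8 for blood. Of 6 fibroblast markers, 4 had a gene. The listed Mir199a had none, but Mir199a2 averaged 37.2 normalized reads and Mir199b 34.9, and neither is in the sum. Of 2 liver markers and 3 muscle markers, 1 each had a gene under the listed symbol. These were Alb (1.31) and Mir206 (2.61), both seen in line 2 alone. Among muscle miRNAs with a gene under other symbols, Mir1b averaged 32.6 normalized reads over all lines and Mir133a-2 averaged 0.985. Mir133b had no read. None of these is in the muscle values, so the values do not show that muscle miRNAs were absent from the other lines. Line 2 was not the highest line in the summed acinar, fibroblast, endothelial or blood markers. Its blood sum, 77.1, was the highest of the Control lines and near the highest of all, 77.8 in a PWS line. Line 2 was the highest for Mir216a, an acinar marker (6.54), and Mir223, a blood marker (3.92), on a few reads each, and the lowest for Mir143 (13.1). The other acinar marker seen, Mir217, was highest in line 16 (10.8), and the blood markers Mir150 and Mir142 were highest in lines 19-1 (9.45) and 19-4 (75.1). The lines are clonal, so these levels do not measure other cells, and their relation to the member values of line 2 was not tested.

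The cluster is known to be active in brain. Of 4 listed neural markers, only Mir124-1 had a gene under the listed symbol. It stood at 265, 136 and 187 normalized reads in Control lines 5-9, 2 and 16 and at 148, 111 and 55.4 in PWS lines 3, 19-1 and 19-4, with a log2 fold change of -0.95 ± 0.37 (SE; limma adjusted p = 0.815). Line 2 was the lowest Control line for Mir124-1 and the highest for the members. The lines are clonal INS-1 derivatives, so Mir124-1 does not measure neural cells here, and its relation to the member values was not tested.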

How the data were processed

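Small RNA was sequenced in 3 Control and 3 PWS INS-1 lines, 1 library per line. Per the methods of the study and the labels, the authors prepared libraries with a UMI-based miRNA kit adapted to RNAs under 200 nt, collapsed duplicates with UMI-tools 1.0.0, trimmed with cutadapt 1.18, aligned with Bowtie2 2.3.4.2 (build Rnor_6.0) and counted with HTSeq 0.11.2. The deposited signal is the read count of a gene divided by a DESeq2 size factor. Whole reads were recovered from it by dividing by the value of a single read in each column (100.0% of values came out whole within 0.001). Columns with the authors' own comparison (mean, fold change, error and p-values) were not used.

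Genotypes were compared on log2(normalized reads + 1) by limma-trend in R 4.3.3 with limma 3.58.1, with no other term. The test covered the 4292 genes averaging 5 normalized reads or more, two-sided, with Benjamini-Hochberg adjustment and a threshold of 0.1. It was tested on simulated reads. Alternatives were edgeR 4.0.16 quasi-likelihood and DESeq2 1.42.0 on recovered reads, pseudocounts, filters, scalings, the table without shared reads, a replicate block, averaging lines 19-1 and 19-4, and leaving out each line. Counting intervals are exact 95% Poisson or binomial intervals and, like the limit of 3 reads, cover counting error only. The fold change scale understates changes of scarce genes. Named were the 12 most abundant members, the members with the most extreme differences among those tested, and the listed domain genes. Some scarcer members and the seed partners were named after their values were seen, and markers came from fixed lists. The members and lists were chosen with earlier results of these data known. RefSeq GRCr8 served for names, gene order and sequences only.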

Additional observations from a re-analysis of the deposited data

How the results depend on the processing

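No member was called under any of the 18 alternatives, 16 with limma and the others with edgeR or DESeq2. They tested between 1 and 26 members. Over all genes they called from 41 of 1087, at a mean of 20 normalized reads, to 66 of 17119 with no filter. At an unadjusted p under 0.05 they placed 0 to 4 members, with 4 of 26 when no filter was set. The share of all genes at that p was not taken for most alternatives, so these counts are not read as a result. Of the tested members, Mir541, Mir379, Mir411, Mir134, Mir494 and Mir300 kept a lower mean in PWS lines under every alternative that tested them, though over the fits that leave out 1 line the log2 fold change ranged from -1.08 to -0.15 for Mir541, -0.73 to -0.03 for Mir379, -0.99 to -0.29 for Mir411, -0.89 to -0.11 for Mir494 and -0.998 to -0.02 for Mir300. Mir381 turned to 0.0054 in edgeR, and over the fits that leave out 1 line it ranged from -0.33 to 0.16, above 0 without line 5-9 or line 19-4. The number of tested members whose groups did not overlap was 1. A stricter filter, at a mean of 20 normalized reads, left only Mir541 and a count of 0, and no filter gave 3, adding Mir329 and Mir487b, where 14.1% and 7.83% of all genes lay apart in either direction. Leaving out 1 line gave 1 to 2, with Mir411, Mir323, Mir494 or Mir300 added without line 5-9, 16, 3 or 19-4, while 17.9% to 23.1% of all genes lay apart. The difference of log2 member totals ranged from -0.89 to -0.22 over the fits that leave out 1 line, and was lowest in size without line 2. It lay between -0.65 and -0.57 under the other scalings, the other table and with lines 19-1 and 19-4 averaged. Over all alternatives the adjusted p of Mir134 ranged from 0.691 to 0.999 and its log2 fold change from -1.27 to -0.64. The replicate numbers do not pair the lines: same-numbered lines correlated at 0.414, 0.218 and -0.0574 over 1087 genes. With the replicate block 0 members were called, and the count over all genes was 56 against 55. Depth limits every statement on the 33 untested members, and a difference in level of the snoRNA arrays was not analysed here.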
